A study of Mus musculus with 18 samples.

Results

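miR-150 was described from the probes for its 2 mature arms, mmu-miR-150-5p and mmu-miR-150-3p (written below without the species prefix), which were found by name among 1265 miRNA probes on each of 9 arrays. Both arms were among the 501 probes that passed the filter on dim signal, miR-150-5p on all 9 arrays and miR-150-3p on 7. The arrays carried RNA of B cells taken from mouse spleens with magnetic beads. 3 arrays were from transgenic line 79 (Tg79), 3 from transgenic line 9 (Tg9) and 3 from wild-type mice (WT). In both lines the miR-17~92 cluster was overexpressed from the Eμ enhancer and an IgH promoter, which drive expression in B cells, and each line derives from 1 founder. Age, sex and strain are not given in the sources used here. The labels number the arrays of each group and do not state that every array is a separate mouse, so the p-values measure the spread between these arrays, part of which may be technical.

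A miRNA is cut from a hairpin precursor, and either arm of the hairpin can be loaded into an Argonaute protein, where bases 2 to 8, the seed, pair with target messages. miR-150 is known as a miRNA of mature B and T cells: it is low in lymphocyte progenitors, accumulates as the cells mature and declines again on activation, and Myb is its best described target. miR-17~92, the transgene, is known for the opposite pattern in B cell development, since it is high in progenitors and promotes proliferation and survival. Myb and the defining messages of B cells were not analysed here, because the probes of the mRNA arrays were not paired with gene names in the sources used here. The check of the labelled cell type therefore rests on miRNAs.

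The hairpin gene Mir150 lies at chr7:45121757-45121821 on the plus strand of GRCm38.p6 (65 bases), where it overlapped 0 other annotated genes. Of the 35 mature miRNAs looked up, 28 matched an entry of RefSeq (GRCm38.p6), among them miR-150-3p at chr7:45121798-45121819. The first sequence below is a member, and miR-17-5p stands for the transgene. miR-342-3p, miR-155-5p and the 3 miR-29 miRNAs are lymphocyte miRNAs whose values are set beside those of miR-150 below. Capitals mark the seed.
miR-150-3p: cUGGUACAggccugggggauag
miR-17-5p: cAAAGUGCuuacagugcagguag
miR-342-3p: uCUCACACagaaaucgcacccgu
miR-155-5p: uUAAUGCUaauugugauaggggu
miR-29a-3p: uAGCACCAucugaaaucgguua
miR-29b-3p: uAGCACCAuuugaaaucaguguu
miR-29c-3p: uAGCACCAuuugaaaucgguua
The seed of miR-150-3p was shared by 0 of the 1678 other mature names in the table, while the 3 miR-29 miRNAs have 1 seed in common.

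miR-150-5p gave a bright signal on most arrays. Before its values, 1 point on the labels: Tg9-2 and Tg9-3 carried a transgenic label with a level of the miR-17~92 cluster close to that of WT, as given further on, so the differences of both arms that rest on them are also given without them. The deposited spot intensity, a linear scanner reading with no normalization, was 825, 410 and 4858 on the Tg79 arrays, against 5074, 9621 and 3145 on the Tg9 arrays and 7430, 7731 and 8477 on the WT arrays. Each array has its own limit for a dim spot, the 95th percentile of its 24 negative control spots, which lay between 46.8 and 76.0. miR-150-5p stood 7.10 to 203 times above it, so its signal on the dimmest array, Tg79-2, was still a measured one.

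miR-150-3p, the other arm of the same hairpin, was close to the limit everywhere. Its intensity was 64.7, 56.4 and 78.6 on the Tg79 arrays, 80.0, 89.7 and 66.6 on the Tg9 arrays, and 104, 78.5 and 112 on the WT arrays. This is 0.851 to 1.90 times the limit of the array, and the arm passed the limit on 1 of 3 Tg79 arrays (Tg79-3), 3 of 3 Tg9 arrays and 3 of 3 WT arrays. A spot this close to empty spots leaves little room for a lower value, and the 2 arms have different probes, so their levels were not set against each other.

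After correction and quantile normalization, which gives all arrays the same distribution of values, miR-150-5p had log2 intensities of 10.26, 9.20 and 12.41 on the Tg79 arrays, 13.12, 13.25 and 11.88 on the Tg9 arrays, and 12.48, 13.11 and 12.27 on the WT arrays. Tg79-1 and Tg79-2 were below all other arrays, and Tg79-3 lay inside the WT range. The group averages were 10.62 ± 1.63 in Tg79, 12.75 ± 0.76 in Tg9 and 12.62 ± 0.44 in WT (SD, n = 3 each). On the unnormalized intensities Tg79-3, at 4858, was below the lowest WT array, at 7430, so that all Tg79 arrays were below all WT arrays, as was the case on that scale for 26.3% of the 501 probes.

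The log2 intensities of miR-150-3p were 6.03, 6.08 and 6.54 on the Tg79 arrays, 6.60, 6.66 and 6.39 on the Tg9 arrays, and 6.56, 6.51 and 6.50 on the WT arrays. The same 2 arrays, Tg79-1 and Tg79-2, were lowest, and Tg79-3 was again among the WT arrays. The averages were 6.21 ± 0.28 in Tg79, 6.55 ± 0.14 in Tg9 and 6.52 ± 0.03 in WT (SD, n = 3 each). Across the 9 arrays, which share their scans and normalization, the arms had a Pearson r of 0.95, and of 0.81 over the 7 arrays without Tg79-1 and Tg79-2.

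**Figure D1:**
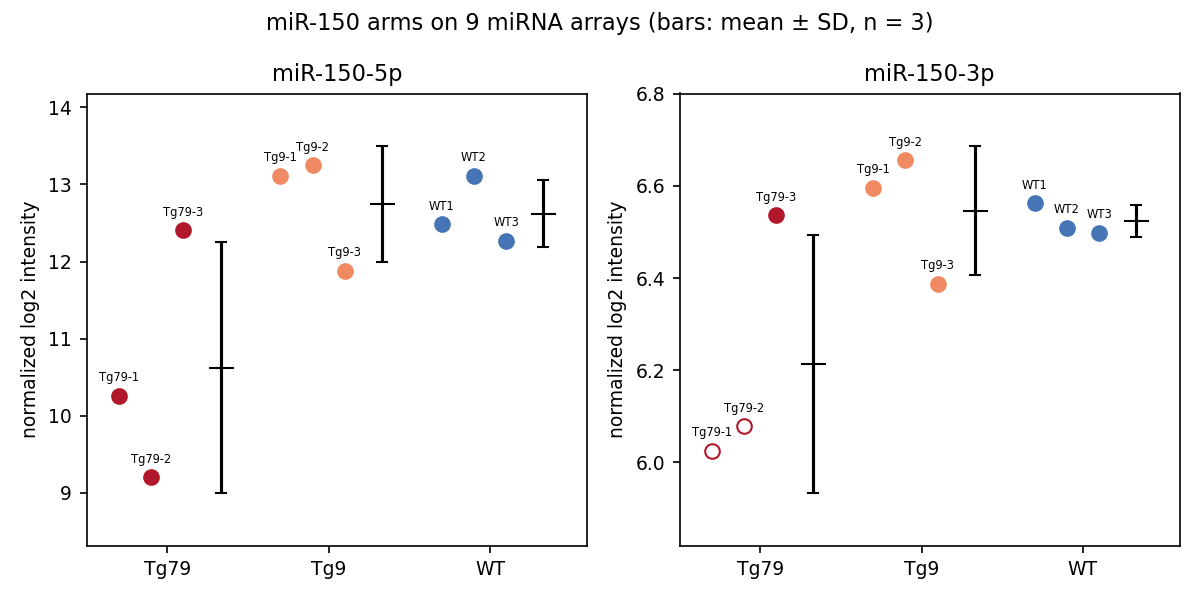
Normalized log2 intensity of miR-150-5p and miR-150-3p on each array (points; open where the spot was not above the limit of its array), with the mean and SD of each group (bars, n = 3) at its right. In both panels Tg79-1 and Tg79-2 are below every other array, while Tg79-3, at 12.41 for miR-150-5p, lies within the WT values; the vertical scales of the panels differ and do not start at 0.

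Line 79 against wild type asks whether miR-150 differed where the transgene was the more strongly expressed. Neither arm passed the test in limma, a linear model fitted to all 501 probes with Benjamini-Hochberg adjustment, in which 23 probes (4.59%) were called at an adjusted p under 0.05. The difference of miR-150-5p, Tg79 minus WT, was -2.0 ± 0.78 log2 units (SE, n = 3 each), a 4.0-fold lower mean, with a 95% interval of -3.82 to -0.18, an unadjusted p of 0.0353 and an adjusted p of 0.175 from limma. At an unadjusted p under 0.05 stood 24.6% of all probes tested. The difference was nonetheless far down the list, since 5 of the 501 probes (0.998%) had a lower one and the median over all probes was -0.04. Many of the 501 are dim: their median value was 6.54 to 6.56 on each array, close to the values of miR-150-3p. 282 of them were above the limit on all 9 arrays, and relative to the median of these the difference was -1.99. Permuting the labels of the 6 arrays, exactly and two-sided, gave p = 0.20 for it, and 3 arrays against 3 cannot go below 0.10.

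Leaving out 1 array changed the call of miR-150-5p. Without Tg79-3 the difference was -2.86 with a limma adjusted p of 0.0295, and without Tg79-2 it was -1.28 with an adjusted p of 0.306. The authors' own processed values, fitted for 463 probes, gave -2.88 with a limma adjusted p of 0.00239. In them all 3 Tg79 arrays were below all 3 WT arrays, as for 36.7% of those probes, and the median over all probes was -0.84. Relative to that median the difference was -2.04, against -1.96 with quantile normalization. With the deposited background column subtracted the sign was the opposite, at 1.31 with an adjusted p of 1.00, and that column was above the spot itself for miR-150-5p on 8 of the 9 arrays.

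For miR-150-3p the difference between Tg79 and WT was -0.31 ± 0.14 log2 units (SE, n = 3 each; 95% interval -0.64 to 0.02), with a limma adjusted p of 0.227 and an exact permutation p of 0.30. Without Tg79-3 it was -0.48 with a limma adjusted p of 0.0380, and in the authors' values it was -2.05 with an adjusted p of 0.00793, or -1.22 relative to the median of all probes there. The spots of Tg79-1 and Tg79-2 behind these values were not above the limit. The sign of the raw difference depended on the scaling: with each array set to its 75th percentile over the probes detected on all arrays it was 0.21, where the median of all probes stood at 0.48. Relative to the median of all probes it was -0.27 both there and with quantile normalization.

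Line 9 against wild type gave no called difference for either arm, and 0 of all 501 probes (0%) passed an adjusted p of 0.05 in limma, with 3 (0.599%) at an unadjusted p under 0.05. miR-150-5p differed by 0.13 ± 0.78 log2 units (SE, n = 3 each), with a limma adjusted p of 0.990 and an exact permutation p of 0.80. The 95% interval was -1.70 to 1.95. The SE and interval use a spread pooled over all 3 groups, Tg79 with its SD of 1.63 among them. With only Tg9 and WT fitted the SE was 0.43, around the same difference. With Tg9-1 as the only array of line 9, whose spread was then taken to be that of the other groups, the difference was 0.45 ± 1.18 with a limma adjusted p of 0.968. miR-150-3p differed by 0.02 ± 0.14 (95% interval -0.31 to 0.36; adjusted p 0.990 from limma), and by 0.07 ± 0.22 with Tg9-1 alone. The sign of the miR-150-5p value was negative with other scalings, at -0.26, -0.34 and -0.05.

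Line 79 against line 9 compares carriers of the same transgene. A code read here as the slide, described further on, put the Tg79 and the Tg9 arrays on different slides. Line and slide can therefore be told apart only through the arrays WT1 and WT2. The difference of miR-150-5p, Tg79 minus Tg9, was -2.13 ± 0.78 log2 units (SE, n = 3 each; 95% interval -3.95 to -0.30), the lowest of the 501 probes. It did not pass the adjustment, with an unadjusted p of 0.0278 and an adjusted p of 0.267 from limma, and an exact permutation p of 0.20. With slide as a term in the model the miR-150-5p difference was -2.76 ± 1.78 (SE), with a limma adjusted p of 0.888. Without that term, 0 of the 501 probes (0%) were called in this comparison, and 77 (15.4%) had an unadjusted p under 0.05. miR-150-3p differed by -0.33 ± 0.14 with a limma adjusted p of 0.322, and by 0.12 with the 75th percentile scaling, where the median of all probes was 0.41. Relative to the median of all probes it was -0.29 with that scaling and -0.31 with quantile normalization. Against Tg9-1 alone the Tg79 arrays differed by -2.46 ± 1.18 for miR-150-5p and by -0.38 ± 0.22 for miR-150-3p, both with a limma adjusted p of 0.932.

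With both lines pooled, miR-150-5p differed from WT by -0.94 ± 0.68 log2 units (SE, 6 transgenic and 3 WT arrays; 95% interval -2.52 to 0.64), with a limma adjusted p of 0.584 and an exact permutation p of 0.393. Without Tg9-2 and Tg9-3 the difference was -0.78 ± 0.84, with a limma adjusted p of 0.681. miR-150-3p differed by -0.14 ± 0.12, with a limma adjusted p of 0.637 and an exact permutation p of 0.417, and by -0.12 ± 0.15 without Tg9-2 and Tg9-3. Of all probes, 0 of 501 (0%) were called and 67 (13.4%) had an unadjusted p under 0.05. These 4 comparisons share arrays, and each is given by its own values only.

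**Figure D2:**
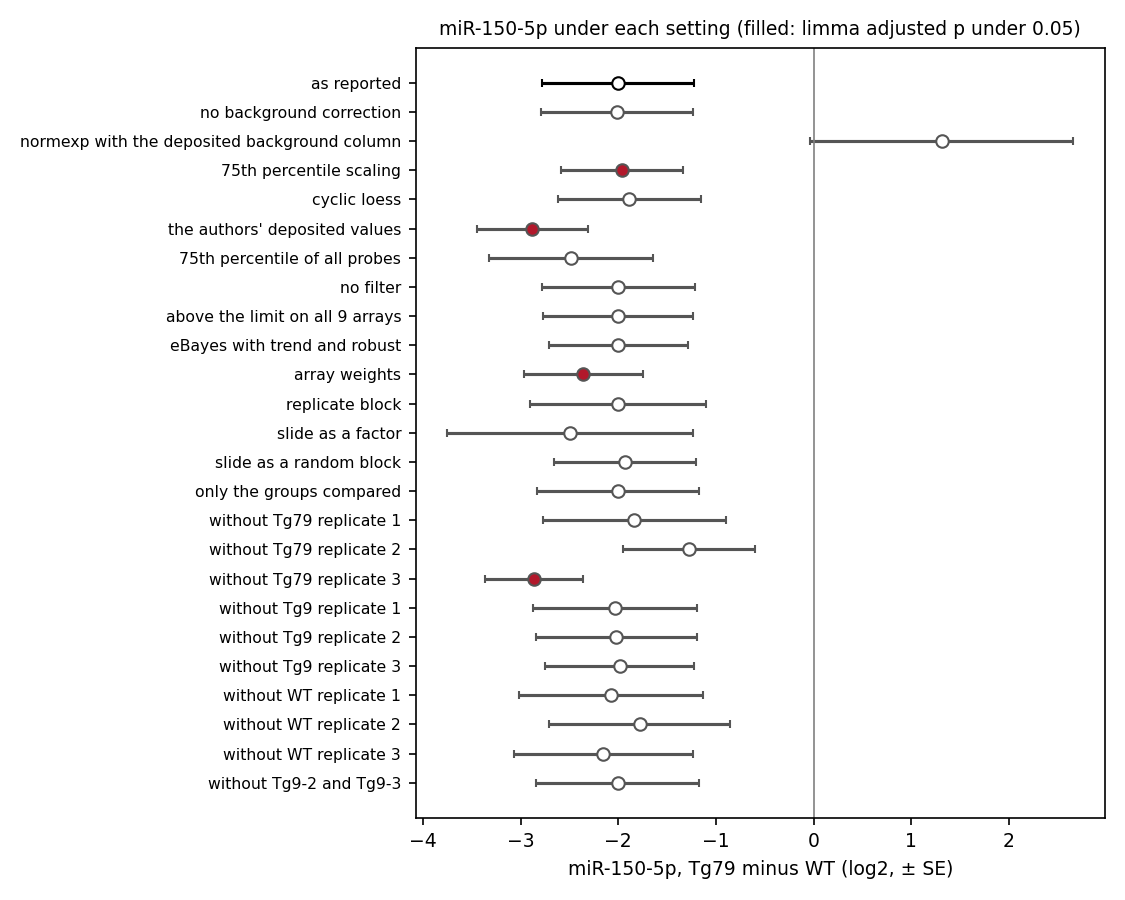
Difference of miR-150-5p between Tg79 and WT (log2, bars: SE) under the reported processing and 24 alternatives, filled where the limma adjusted p was under 0.05. 23 of the 24 alternatives lie below 0 and 4 are filled; the exception in sign, at 1.31, is the subtraction of the deposited background column.

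Among the 3 Tg79 arrays miR-150-5p had the widest spread of all probes tested. Its SD there, 1.63 log2 units, was exceeded by 0 of the 501 probes, whose median SD in Tg79 was 0.17. In Tg9 the SD of 0.76 was exceeded by 26 probes (5.19%), and in WT the SD of 0.44 was exceeded by 48 (9.58%). The dim arm had no such spread, since the SD of miR-150-3p in Tg79, 0.28, was exceeded by 174 probes (34.7%).

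Tg79-3 also stood apart from the other 2 Tg79 arrays for miRNAs other than miR-150. 54 of the 501 probes (10.8%), the 2 arms of miR-150 among them, had Tg79-1 and Tg79-2 below all WT arrays and Tg79-3 not. With Tg79-2 as the array that was not below, the count was 24 (4.79%), and with Tg79-1 it was 23 (4.59%). Above all WT arrays the counts were closer together, at 28 for Tg79-3, 31 for Tg79-2 and 20 for Tg79-1. Probes brighter than the limit made up 24.4% to 32.3% of all on Tg79 arrays, 33% to 42.6% on Tg9 arrays and 35.1% to 40.8% on WT arrays, and the part of this share in the lower values of Tg79 was not tested.

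The level of miR-17~92 on the same array was taken as the mean log2 intensity over 11 of its 12 listed arms, those that passed the filter. This level includes arms made by the mouse's own cluster, as on the WT arrays, and is not that of the transgene alone. It was 9.35, 10.25 and 9.88 on the Tg79 arrays, 9.31, 7.99 and 8.02 on the Tg9 arrays, and 7.68, 7.98 and 7.70 on the WT arrays. Its best known arm, miR-17-5p, had 13.12, 13.54 and 13.25 on the Tg79 arrays, 13.25, 10.60 and 10.86 on the Tg9 arrays, and 10.26, 10.57 and 10.34 on the WT arrays. By both measures Tg9-2 and Tg9-3 were close to the WT arrays and Tg9-1 to those of line 79. Leaving Tg9-2 and Tg9-3 out left the difference of miR-150-5p between Tg79 and WT at -2.0. Tg9 arrays enter that difference only through the shared normalization, so this is no check of it.

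The cluster levels formed separate clumps, 4 high and 5 low arrays with a gap of 1.29 log2 units between them, wider than the range of either side (0.94 and 0.35). No correlation over all 9 arrays was therefore taken, and neither clump has 6 arrays. Array by array, the highest cluster level (Tg79-2, 10.25) went with the lowest miR-150-5p (9.20). The second-highest (Tg79-3, 9.88) went with 12.41, which 4 of the 9 arrays exceeded.

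Arrays with nearly equal cluster levels could be far apart in miR-150-5p. Tg79-1 and Tg9-1 differed by 0.04 log2 units in the cluster level, Tg79-1 minus Tg9-1, and by -2.86 in miR-150-5p and -0.57 in miR-150-3p. Tg9-1, the 1 array of line 9 with a high cluster level, had the second-highest miR-150-5p of all, at 13.12. Within the low clump, Tg9-2 and Tg9-3 differed by -0.03 in the cluster level and by 1.37 in miR-150-5p. These pairs were picked after their values were seen and are a description of single arrays.

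**Figure D3:**
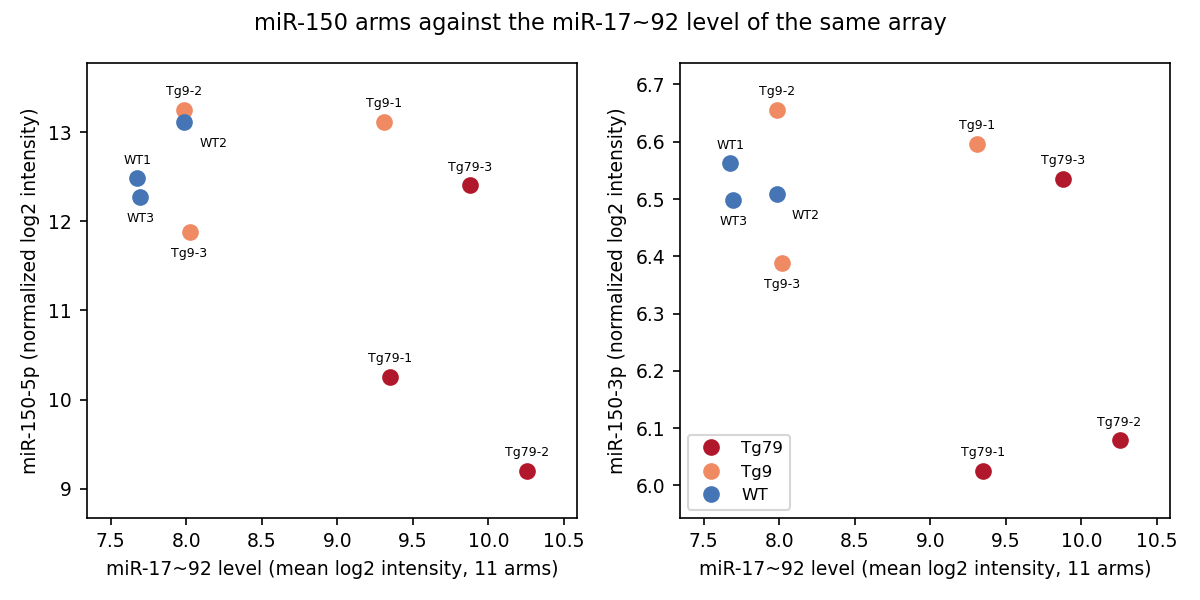
Normalized log2 intensity of each miR-150 arm against the miR-17~92 level (mean of 11 arms) of the same array, 1 point per array. Among the 4 arrays with a high cluster level miR-150-5p spans 9.20 (Tg79-2) to 13.12 (Tg9-1), while the 5 arrays with a low cluster level lie between 11.88 (Tg9-3) and 13.25 (Tg9-2).

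A code shared by the deposited arrays, read here as the slide, put the 3 Tg9 arrays with WT1, the 3 Tg79 arrays with WT2, and WT3 alone. Within slides, the mean of Tg79 differed from WT2 by -2.49 log2 units for miR-150-5p, the single arrays by -3.91 to -0.71. Tg9 differed from WT1 by 0.26 (-0.60 to 0.77). For miR-150-3p the within-slide differences were -0.30 for Tg79 and -0.02 for Tg9. The cluster level was 1.84 higher in Tg79 than on WT2 and 0.76 higher in Tg9 than on WT1. With 1 WT array on each slide these values carry no error of their own, and with slide as a term in the model the limma adjusted p of miR-150-5p was 0.621 for Tg79 against WT.

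Other miRNAs of mature, activated or developing lymphocytes were read beside miR-150 from a list of 18, all of which passed the filter. The list was chosen with earlier results of these data known. 17 of the 18 were above the limit on all 9 arrays, while many of all probes tested are dim. In each comparison below, a distance of the list from all probes may in part follow from this choice and is given as a description. In Tg79 against WT, 1 of 18 was called in limma, against 4.59% of all probes, and that miRNA was higher, a direction in which 3.59% of all probes were called. 11 of 18 had an unadjusted p under 0.05, against 24.6% of all probes. 7 of 18 had all 3 Tg79 arrays below all 3 WT arrays (16.4% of all probes) and 4 of 18 had them above (13%). The median difference over the list was -0.76 log2 units, with 12 of 18 below 0 and a range of -1.67 to 1.52, against a median of -0.04 and 57.9% below 0 over all probes. The count called depended on the scaling: with the 75th percentile 5 of the list were called higher and 7 lower, where 33.1% of all probes were called higher and 3.79% lower. With the authors' values 1 was called higher and 10 lower, where these shares were 3.46% and 19.9%.

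The called miRNA was miR-181b-5p, which with miR-181a-5p belongs to a family known from lymphocyte progenitors and thymocytes. It was 7.84, 7.39 and 7.64 on the Tg79 arrays, 7.34, 6.49 and 7.0 on the Tg9 arrays, and 6.37, 6.64 and 6.42 on the WT arrays, and rose in Tg79 by 1.14 ± 0.22 log2 units over WT (SE, n = 3 each; limma adjusted p 0.0387). All 3 Tg79 arrays, Tg79-3 included, were above all WT arrays, as for 13% of all probes. The call was lost when any 1 of Tg79-1, Tg79-2, Tg79-3, Tg9-3, WT1, WT2 or WT3 was left out (limma adjusted p 0.0533 to 0.181), and it held under 12 of 24 alternatives (adjusted p 0.00818 to 1.00). With the replicate number as a block the adjusted p was 0.0894, and with the deposited background column the difference was -0.023. miR-181a-5p differed by 0.98 ± 0.37 with a limma adjusted p of 0.16.

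miR-342-3p, an abundant miRNA of mature lymphocytes, had a pattern close to that of miR-150-5p. It was 7.61, 6.67 and 8.40 on the Tg79 arrays, 8.75, 9.64 and 8.34 on the Tg9 arrays, and 8.98, 9.56 and 9.15 on the WT arrays. Tg79-2 was lowest for both miRNAs, but Tg79-3 was here below all WT arrays. The difference, Tg79 minus WT, was -1.67 ± 0.48 log2 units (SE, n = 3 each; limma adjusted p 0.09).

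The miR-29 family, which shares 1 seed and is known to be more abundant in mature than in dividing cells, had Tg79-1 and Tg79-2 below all WT arrays in each of its 3 members. miR-29c-3p was 7.20, 7.69 and 9.60 on the Tg79 arrays, 9.74, 9.79 and 10.26 on the Tg9 arrays, and 9.51, 9.72 and 9.04 on the WT arrays, so that Tg79-3 lay among the WT arrays as it did for miR-150. miR-29a-3p was 9.77, 11.16 and 11.38 on the Tg79 arrays, 11.88, 13.12 and 11.66 on the Tg9 arrays, and 12.41, 12.90 and 11.88 on the WT arrays. miR-29b-3p was 9.10, 10.48 and 10.57 on the Tg79 arrays, 11.003, 11.74 and 10.78 on the Tg9 arrays, and 11.10, 11.83 and 11.10 on the WT arrays. For miR-29a-3p and miR-29b-3p, unlike miR-29c-3p, Tg79-3 was thus below all WT arrays as well. None of the 3 passed the test in Tg79 against WT, with differences of -1.62 (miR-29a-3p), -1.29 (miR-29b-3p) and -1.26 (miR-29c-3p).

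miR-155-5p, which is known to be induced when B cells are activated, set the same 2 Tg79 arrays apart as miR-150-5p did, but as high ones. On the Tg79 arrays it was 11.003, 9.74 and 8.20, against 7.97, 8.34 and 8.57 on the Tg9 arrays, and 8.13, 8.32 and 7.93 on the WT arrays. Tg79-1 and Tg79-2 were above every other array and Tg79-3 was inside the WT range. The difference between Tg79 and WT was 1.52 ± 0.61 log2 units (SE, n = 3 each; limma adjusted p 0.18). Its r with miR-150-5p was -0.82 over 9 arrays and -0.20 over the 7 arrays without Tg79-1 and Tg79-2, as a description of these arrays.

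For some miRNAs of the list Tg79-3 was on the same side of all WT arrays as the other arrays of its line. This was below for 7 of 18 and above for 4 of 18, against 16.4% and 13% of all probes. miR-146a-5p, a brake on inflammatory signalling, was 9.40, 9.29 and 9.20 on the Tg79 arrays, 10.34, 11.48 and 8.92 on the Tg9 arrays, and 10.69, 11.06 and 10.39 on the WT arrays. miR-21a-5p, known to be raised in many proliferating cells, was 11.16, 12.13 and 11.74 on the Tg79 arrays, 11.83, 10.83 and 11.74 on the Tg9 arrays, and 10.39, 10.86 and 10.26 on the WT arrays. For both, all 3 Tg79 arrays were on 1 side of all WT arrays, with limma adjusted p-values of 0.18 and 0.09.

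In Tg9 against WT 0 of the 18 were called and 1 had an unadjusted p under 0.05 (0.599% of all probes), with a median difference of -0.19 log2 units against -0.01 over all probes. With both lines pooled 0 were called and 5 had an unadjusted p under 0.05 (13.4% of all probes), with a median of -0.46 against -0.03. In Tg79 against Tg9 0 were called and 6 had an unadjusted p under 0.05 (15.4% of all probes), with a median of -0.41 against -0.03. Without Tg9-2 and Tg9-3 the list median was -0.29 for Tg9-1 against WT, where that of all probes was -0.03. It was -0.54 for the pooled comparison, against -0.03 over all probes, and -0.26 for Tg79 against Tg9-1, against 0.01.

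**Figure D4:**
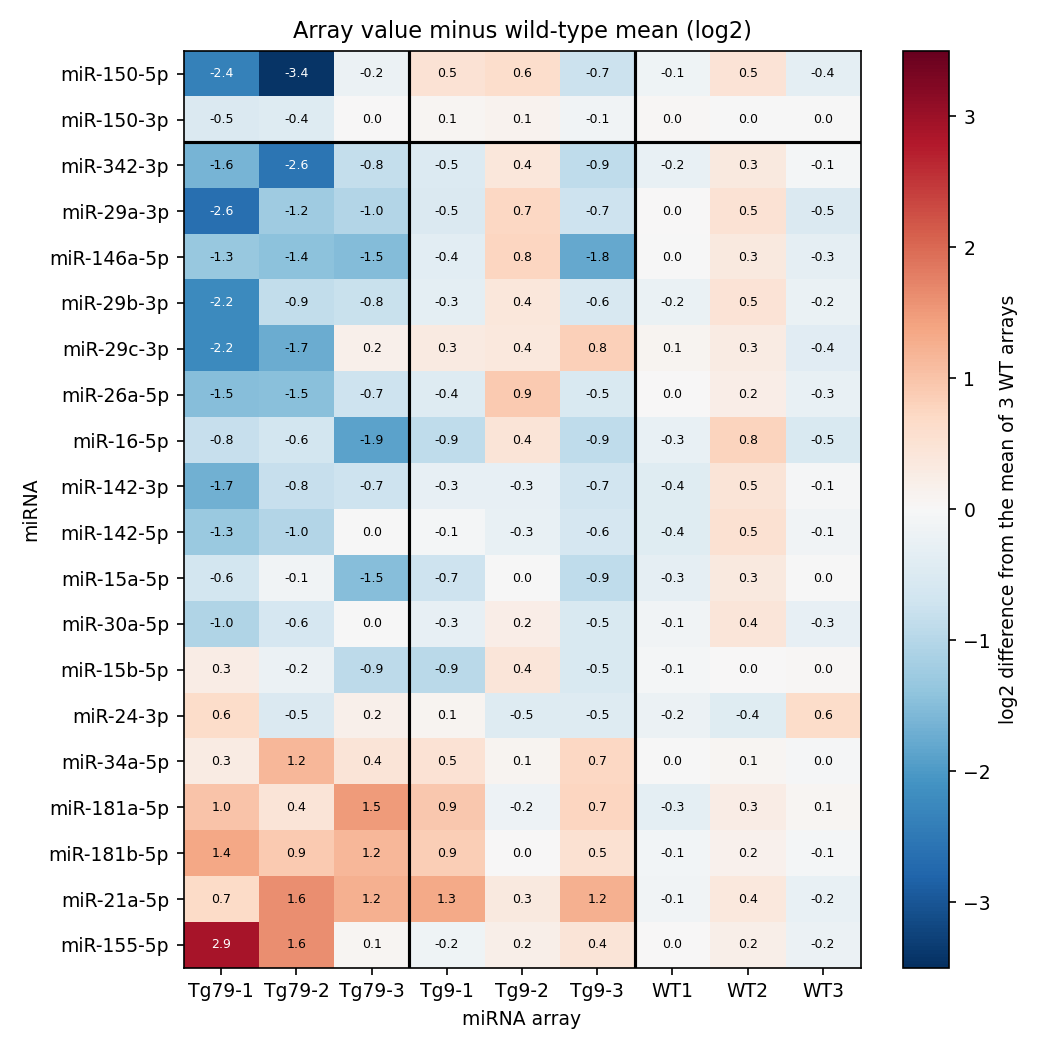
Log2 intensity of each array minus the mean of the 3 WT arrays, for the miR-150 arms (top) and the 18 lymphocyte miRNAs, ordered by their Tg79 difference. The 2 dark cells of miR-150-5p are Tg79-1 and Tg79-2; Tg79-3 is near 0 there, and in the row of miR-155-5p the same arrays are high.

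The isolate could also hold cells other than B cells, and a bulk array cannot tell fewer cells of a type from less RNA per cell. Of 10 miRNAs of myeloid, erythroid, endothelial and stromal cells, 7 passed the filter and 0 were called in any comparison, where 4.59% of all probes were called in Tg79 against WT and 0% in the others. 5 of the 7 differences between Tg79 and WT were above 0, with a median of 0.20 log2 units. Over all probes the median was -0.04, with 57.9% below 0. The mean log2 intensity over the 7 was 6.84, 6.63 and 6.14 on the Tg79 arrays, 6.82, 6.69 and 6.57 on the Tg9 arrays, and 6.58, 6.54 and 6.43 on the WT arrays. By this normalized mean Tg79-1 was the highest of all and Tg79-3 the lowest, and Tg79-3 also had the highest miR-150-5p of its line. The mean rests in part on dim spots, since miR-145a-5p and miR-125b-5p were above the limit on 5 of the 9 arrays and miR-143-3p on 7. Tg9-1, at 6.82, had a miR-150-5p of 13.12.

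The summed intensity of the 7, with no normalization, was 434 to 765 on Tg79 arrays, 594 to 998 on Tg9 arrays and 628 to 891 on WT arrays. Tg79-3 was the lowest here too, but Tg79-1, at 765, was below Tg9-1 (998), WT1 (891) and WT3 (772). The erythroid miR-144-3p was above the limit on 0 arrays and the endothelial miR-126-5p on 1, while the probe of miR-199a-3p carries several names and was not used. The other erythroid miRNA, miR-451a, was above the limit on all 9 arrays. It was 8.03, 7.84 and 6.75 on the Tg79 arrays and 8.05, 7.66 and 7.77 on the Tg9 arrays. On the WT arrays it was 7.65, 6.97 and 7.02. It differed from WT by 0.32 ± 0.34 in Tg79 and by 0.61 ± 0.34 in Tg9 (SE, n = 3 each). miR-223-3p, the myeloid marker, was 6.69, 6.35 and 6.21 on the Tg79 arrays, 9.10, 7.47 and 6.57 on the Tg9 arrays, and 7.39, 7.64 and 7.16 on the WT arrays. All Tg79 arrays were thus below all WT arrays, as for 16.4% of all probes. The endothelial miR-126-3p had all Tg79 arrays above all WT arrays, as did 13% of all probes. It was 6.90, 6.36 and 6.35 on the Tg79 arrays, 6.27, 6.12 and 6.33 on the Tg9 arrays, and 5.94, 6.23 and 6.14 on the WT arrays, a difference of 0.43 ± 0.16 between Tg79 and WT (SE, n = 3 each; limma adjusted p 0.16). The part of other cells in the miR-150 values was not tested.

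Among the 278 singly named probes above the limit on all 9 arrays, those most like miR-150-5p by Pearson r were miR-30d-5p (0.97), miR-140-3p (0.95), miR-3971 (0.95), miR-30b-5p (0.94) and miR-342-3p (0.94). The median r was -0.01, and 6 probes had an r of 0.9 or more. Over the 7 arrays without Tg79-1 and Tg79-2 these r were 0.82, 0.92, 0.85, 0.74 and 0.70 in the same order. The points share scans and normalization, and r is given as a description.

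miR-30d-5p was 7.49, 7.18 and 9.23 on the Tg79 arrays, 9.43, 10.15 and 8.79 on the Tg9 arrays, and 9.36, 9.77 and 9.57 on the WT arrays. Like miR-150-5p it was lowest on Tg79-2, highest on Tg9-2, and lowest among the Tg9 arrays on Tg9-3. Such a likeness follows from its choice by r on these arrays. miR-140-3p varied less, with 8.57, 8.10 and 8.95 on the Tg79 arrays, 9.28, 9.60 and 8.82 on the Tg9 arrays, and 8.95, 9.47 and 9.10 on the WT arrays.

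At the other end stood miR-1198-5p (r = -0.96), miR-346-3p (-0.92), miR-298-5p (-0.92), miR-320-3p (-0.88) and miR-712-3p (-0.87). miR-1198-5p was 8.13, 9.10 and 6.82 on the Tg79 arrays, 6.38, 6.54 and 7.06 on the Tg9 arrays, and 6.33, 6.60 and 6.40 on the WT arrays. It was highest on the 2 arrays where miR-150-5p was lowest, and without them its r was -0.52.

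**Figure D5:**
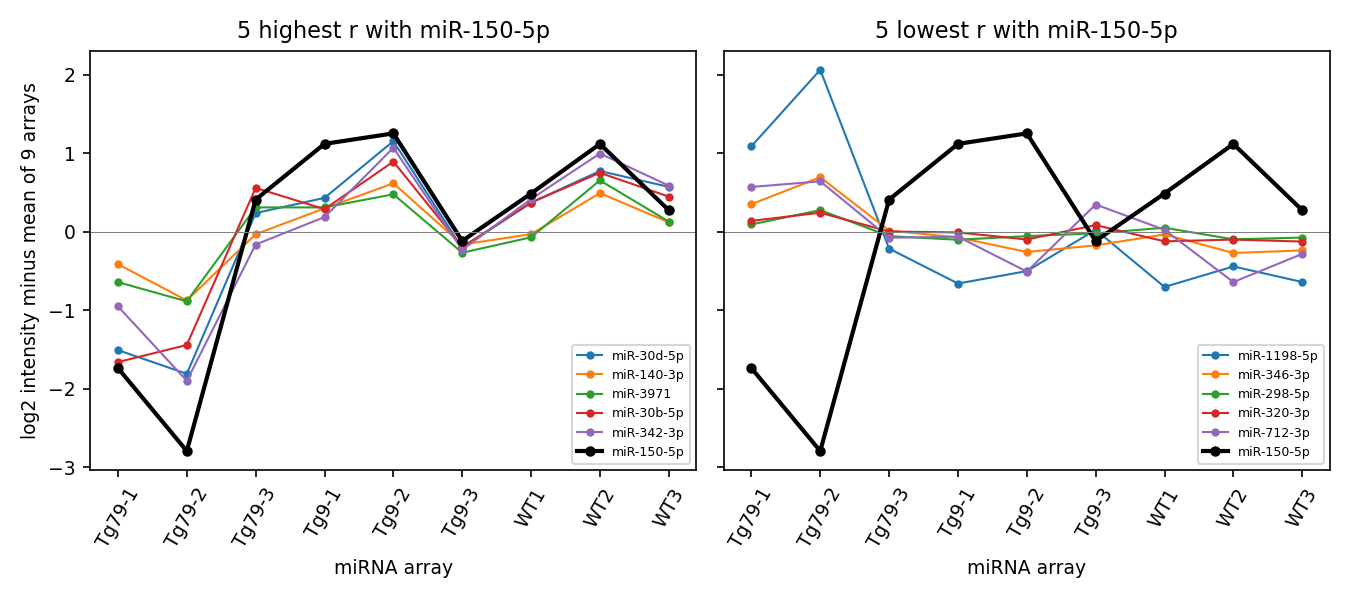
Log2 intensity minus the mean of all 9 arrays for miR-150-5p (black) and the 5 probes with the highest (left) and the 5 with the lowest (right) Pearson r with it; lines join the values of 1 probe and imply no order of arrays. The probes at the left share the low values on Tg79-1 and Tg79-2, and those at the right are high on these arrays, which follows from their choice by r.

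miR-3971 has a stretch of letters that pairs with miR-150-3p. A run of 10 bases at its positions 10 to 19, in capitals below, is the reverse complement of bases 1 to 10 of miR-150-3p. 1 of 1678 mature names (0.0596%), miR-3971 itself, has a run this long. The length of its own run was the cutoff, so miR-3971 was counted by construction.
miR-3971: cuccccaccCCUGUACCAGuga
miR-150-3p: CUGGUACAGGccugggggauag
miR-3971 was 6.96, 6.71 and 7.91 on the Tg79 arrays, 7.91, 8.07 and 7.33 on the Tg9 arrays, and 7.53, 8.25 and 7.73 on the WT arrays. The run is a match of letters only.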

How the data were processed

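The deposited miRNA scanner files hold 1 spot intensity per probe (Cy5, 1 colour), with no normalization per the file headers; per the labels' protocols, total RNA was taken with Trizol. The authors' deposited log2 table was used only as an alternative: its rows were moved by 5, after which Spearman's rho with the scanner values was 1 (0.1415 to 0.1707 as given). The sources used here do not say how the authors made it. Intensities were corrected with limma 3.58.1 in R 4.3.3 (normexp on the foreground, offset 50), taken to log2 and quantile normalized. A probe was tested if it exceeded the 95th percentile of an array's 24 negative controls on at least 3 of 9 arrays. 1 limma model held the 3 group means, with two-sided tests and Benjamini-Hochberg adjustment over 501 probes, and was tested on simulated data. Exact permutations stand beside it. miRNAs were named by a rule: the arms, the lists, and the 5 highest and 5 lowest r. Members and lists were chosen with earlier results of these data known. Replicate numbers did not pair arrays (r of deviations -0.43 to 0.38). The number of arrays limits the precision. The 9 mRNA arrays were not analysed here.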

Additional observations from a re-analysis of the deposited data

How the results depend on the processing

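Of 24 alternatives, 19 left miR-150-5p in Tg79 against WT uncalled and below 0. It was called lower with the authors' values (-2.88), the 75th percentile scaling over probes detected on all arrays (-1.96), array weights (-2.36) and without Tg79-3, and was reversed with the deposited background column (1.31); leaving out 1 array gave -2.86 to -1.28. With the replicate number as a block its adjusted p was 0.263 (difference -2.0), and the block changed no call of either arm. The authors' values also called miR-150-5p in Tg79 against Tg9 (-2.89, adjusted p 0.00679) and miR-150-3p in Tg79 against WT (-2.05) and against Tg9 (-1.84, adjusted p 0.0366). With the 75th percentile scaling miR-150-3p was reversed in Tg79 against WT (0.21), against Tg9 (0.12) and in both lines together (0.15), where the medians of all probes were 0.48, 0.41 and 0.27, and relative to them the arm stood at -0.27, -0.29 and -0.13; it was also reversed with the background column in both lines together (0.0085), where miR-150-5p was 1.89. In Tg9 against WT, miR-150-5p was reversed with the 75th percentile (-0.26), the same over all probes, chosen after seeing the data (-0.34), and cyclic loess (-0.051), and miR-150-3p with the authors' values (-0.21) and slide as a factor (-0.016); leaving out 1 array gave -0.14 to 0.53 and -0.031 to 0.10. For miR-150-3p in Tg79 against WT leaving out 1 array gave -0.48 to -0.22. The causes were not tested. The gap in the cluster level was 0.498 with the background column, 1.04 and 0.922 with the 75th percentile over detected and over all probes, and 1.36 with the authors' values. It was there no wider than the clumps, so r was computed: for miR-150-5p 0.64, -0.67, -0.62 and -0.83 (rho 0.29, -0.65, -0.52 and -0.62) and for miR-150-3p 0.17, 0.78, -0.51 and -0.80 (rho 0.32, 0.70, -0.40 and -0.67). No permutation p stayed under 0.05 over these 16 tests (lowest adjusted p 0.0723), and with the authors' values r for miR-150-5p was -0.49 without Tg79-1 and Tg79-2. The 1 called miRNA of the lymphocyte list, miR-181b-5p, lost its call with the replicate block. The count of that list called was 0 with the background column, no filter, the replicate block and slide as a factor, 12 with the 75th percentile, 11 with the authors' values, 5 with array weights, 2 with only the groups compared and without Tg9-2 and Tg9-3, and 0 to 3 leaving out 1 array. Over all probes the 23 calls in Tg79 against WT (18 higher, 5 lower) became 185 (166 higher, 19 lower) with the 75th percentile, 39 (19 higher, 20 lower) with that of all probes, 108 (16 higher, 92 lower) with the authors' values, 79 with array weights (44 higher, 35 lower), 39 with slide as a random block (25 higher, 14 lower), and 0 with the background column, no filter, the replicate block or slide as a factor; leaving out 1 array gave 0 (Tg79-2, Tg9-3, WT1 or WT3) to 29. The slide correlation fitted for the random block was negative, at -0.144, with each line on its own slide, and the counts with that block rest on it. With that block the SE of miR-150-5p in Tg79 against Tg9 was 0.59, against 0.78 as reported. In Tg79 against Tg9 the 0 calls became 34 with slide as a random block, 23 with the authors' values, 9 with the 75th percentile, 8 without Tg9-1, 2 without Tg79-3 and 1 without Tg9-2 and Tg9-3. In both lines together they became 35 with array weights, 4 without Tg9-1 and 8 without Tg9-2 and Tg9-3, and in Tg9 against WT 3 without those arrays. Signal over background limits miR-150-3p, which was near the limit on every array.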
